A study of Homo sapiens with 32 samples.

Results

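The comparison described here sets RNA extracted on day D from HCT116 control clones 1 and 2 against RNA of the clones with the same labels extracted on days A, B and C. The members were chosen by the labels alone, and they were 8 of the 32 samples of the series: 2 libraries of day D (1 per clone) and 6 libraries of days A to C (3 per clone). HCT116 is a human colorectal cancer cell line. Control cells received Cas9-GFP with an empty guide vector, were sorted for GFP and were then expanded from single cells, so each control group is 1 clone and carries no targeted deletion. No other treatment separates the days in the labels, and a day names when RNA was extracted, so that culture, extraction and library of a day cannot be told apart. Control clones 3 and 4 (6 libraries, days A to C) and 2 clones with a deletion of the element 18qE (2 libraries, day D) serve below as further levels. For a few genes, levels of clones with a deletion of the element E7 or 18qNE (days A to C) are given too. Nothing in the labels says that the 3 libraries of a clone came from separately kept cultures, so p-values measure only the spread between these libraries.

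Cell lines that mismatch repair no longer guards, as is known for HCT116, gather mutations as they grow, and single-cell clones of a line can differ in which genes they express. A gene that is on in 1 clone and off in its neighbour can therefore mark the clone, whereas genes of growth, stress and nutrient supply can move with density and medium. A gene can do both, and which applies to a gene here was not tested. Both kinds of gene were read in the day D libraries, beside depth and read placement.

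Gene counts totalled 24733705 in the day D library labelled clone 1 and 22972412 in the one labelled clone 2, against 9871667 to 14445320 on days A to C. Reads aligned at several places made up 18.8% and 15.6% of all reads on day D, against 12.6% to 13.8%. Reads outside genes made up 6.34% and 6.47% on day D, against 7.78% to 14.3%. Levels are CPM, edgeR's scale of counts relative to the gene total of a library, with TMM factors over the 22 HCT116 libraries. The epithelial markers EPCAM (361 and 334 CPM on day D, 315 to 368 CPM on days A to C), KRT8, KRT18, CDH1, ELF3 and CDX2 were expressed in all 8 libraries. KRT8 had 3280 to 3570 CPM on day D, above the 1930 to 2790 CPM of days A to C. CDX2 was also above its range of days A to C, whereas KRT18, CDH1 and ELF3 overlapped theirs. None of these markers was called by edgeR. VIL1, LGALS4 and GPA33, which mark differentiated intestinal cells, stayed below 0.4 CPM in each of them. In bulk RNA, a share of cells with a gene off and a lower level in every cell cannot be told apart. Of 12 fibroblast and 12 endothelial and blood markers with an identifier, 1 each exceeded 1 CPM in any of the 8 libraries, and the lists summed to 16.1 to 21 CPM and 1.99 to 2.36 CPM on day D, against 18.1 to 29.4 CPM and 0.896 to 2.93 CPM on days A to C. Of 11 HEK293 and neural markers with an identifier, 4 exceeded 1 CPM in any of the 8. That list summed to 94.6 to 98.9 CPM on day D, against 79 to 103 CPM on days A to C.

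The day D library labelled clone 1 was nearer to clone 4 than to the clone of its label. It differed 4-fold or more, on the log2(CPM + 1) scale over 12429 genes above a mean of 2 CPM, from the mean of clone 4 in 1 gene, but from clone 1 in 10 genes, from clone 2 in 16 and from clone 3 in 21. The 3 libraries of clone 4 differed from the mean of their own other libraries in 2 to 3 genes, and those of clone 1 in 0 to 3 genes. At 2-fold, the day D library labelled clone 1 differed from clone 4 in 21 genes, inside the 15 to 31 genes of clone 4's own libraries, and from clone 1 in 83. At that fold, clone 1's own libraries differed from their clone in 25 and 22 genes on days B and C and in 181 on day A. At 4-fold, day A libraries of clones 2 and 3 differed from their own clones in 9 and 14 genes. At 2-fold, the distance of the day D library labelled clone 1 to clone 1 was thus below that of clone 1's own day A library. At 4-fold, its 10 genes exceeded the 0 to 3 of clone 1's own libraries, and only clone 3 of day A was further from its own clone. No clone was as near to the day D library labelled clone 2, which differed 4-fold from clones 1, 2, 3 and 4 in 15, 12, 28 and 8 genes. Libraries of clone 2 itself differed from their own clone in 0 genes on days B and C and in 9 genes on day A. At 2-fold the day D library labelled clone 2 was 128 genes from clone 2, whose own libraries were 45, 26 and 262 genes away on days B, C and A. The day A library of clone 3 differed from its own clone in 14 genes at 4-fold and in 359 at 2-fold. Day A libraries of clones 1 and 4 differed from their own clones in 3 genes each at 4-fold. The distance of the day D library labelled clone 2 to clone 2 was thus within the span of these day A libraries, at 4-fold only through clone 3. At 4-fold its 12 genes exceeded the 0 to 9 genes of clone 2's own libraries. A difference of clone was not tested. Clones 1 and 2 were close to each other on days A to C, where 3 genes of 14632 (0.0205%) were called between them by edgeR's quasi-likelihood test with Benjamini-Hochberg adjustment. Across all 4 clones on those days, 7.8% of genes were called for clone.

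**Figure D1:**
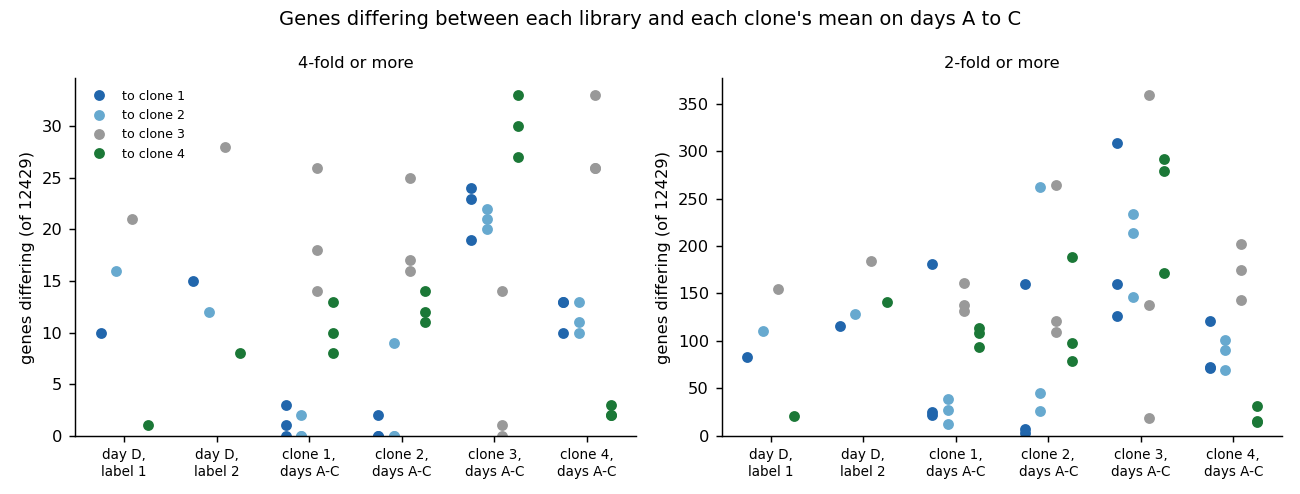
Number of genes, of 12429, that differed 4-fold or more (left) and 2-fold or more (right) between a library and the mean of each control clone on days A to C, leaving the library itself out of its own clone's mean. Each point is 1 library and 1 clone; the day D library labelled clone 1 sits at 1 gene from clone 4 and at 10 genes from clone 1.

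In single genes, too, day D libraries differed from the clone of their label. ZNF91, a zinc finger protein that represses mobile elements, had 0.0849 CPM in the day D library labelled clone 1, against 14.6 to 16 CPM in clone 1 on days A to C, and clone 4 had 0.077 to 0.406 CPM. On pooled counts (2 on day D and 569 on days A to C) that ratio was 0.0055 (exact 95% interval 0.000664 to 0.02, counting error only). SOX30, a transcription factor of germ cells, separated the clones on days A to C: clone 2 had 3.51 to 6.07 CPM and clone 1 had 0 to 0.218 CPM. In the day D library labelled clone 2 it stood at 0.278 CPM. PRPS1, an enzyme that makes the ribose phosphate donor of nucleotide synthesis, had 6.85 CPM in that library, against 29.1, 36.3 and 36.7 CPM in clone 2 on days A, B and C; clone 3 had 5.96 to 7.72 CPM. Of 35 genes that varied at least 4-fold between the clone means of days A to C and passed the clone test, the day D library labelled clone 1 was nearest to clone 4 in 20, to clone 1 in 7, to clone 2 in 6 and to clone 3 in 2. For the day D library labelled clone 2 the numbers were 13 for clone 4, 12 for clone 1, 7 for clone 3 and 3 for clone 2. Clone 4's own libraries of days A, B and C were nearest to clone 4 in 22, 25 and 23. Clone 2's own libraries were nearest to clone 1 in 11, 16 and 16 and to clone 2 in 16, 14 and 15. The split between clones 1 and 2 therefore says little. No sample was moved to another group, and the comparison below keeps the labels as given, so what it calls a day D change holds any difference of clone as well.

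With clone as a term, 67 of 14782 genes (0.453%) were called between day D and days A to C at an adjusted p under 0.05 (edgeR's quasi-likelihood test with Benjamini-Hochberg adjustment): 27 higher on day D (0.183%) and 40 lower (0.271%). Of the 67, 15 rose and 31 fell at least 2-fold, and 60 were protein coding. Both day D libraries lay above all 6 libraries of days A to C in 10.8% of all tested genes and below them in 6.87%, and did so in the called direction in all 67. Library totals in place of TMM factors shifted the median of all genes by -0.071 (log2) and gave 15 higher and 51 lower, so that 22.7% of calls were higher, against 40.3%. The count depended on which libraries entered. It was 29 without the day D library labelled clone 1 and 13 without the one labelled clone 2, and 39, 38 and 34 without clone 2 of day B, clone 1 of day C and clone 2 of day C. It was 2150 without day A, 28 without day B and 21 without day C. Of the 30 named genes that were called, 15 were also called without the day D library labelled clone 1 and 9 without the one labelled clone 2. KRT7, STXBP6, LNCAROD, CD33, DKK1 and TNIK were called in both.

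Taken by single days, the contrasts were broader. Day D differed from day A in 2311 genes (15.6%; 1133 higher and 1178 lower), from day B in 596 (4.03%; 294 higher and 302 lower) and from day C in 337 (2.28%; 170 higher and 167 lower). Day B differed from day A in 2687 genes (18.2%) and day C from day A in 2008 (13.6%). Between days C and B edgeR called 0 genes (0%), with 609 at an unadjusted p under 0.05. The spread among days A to C, against which day D was tested, thus included differences of day A from days B and C that touched about as many genes as that of day D from day A. These contrasts share libraries. Single libraries weighed heavily in them. Day D against A gave 550 genes without the day D library labelled clone 2 and 118 without clone 2 of day A. Day D against B gave 147 and 115 genes without clones 1 and 2 of day B, and 977 and 966 without clones 1 and 2 of day A. Day D against C gave 73 and 82 genes without clones 1 and 2 of day C, and 892 and 871 without clones 1 and 2 of day A, and without clone as a term (no replicate block) it gave 175. Day B against A gave 830, 748 and 726 genes without clone 2 of day A, clone 1 of day B and clone 2 of day B. Day C against A gave 554, 163 and 245 genes without clone 2 of day A, clone 1 of day C and clone 2 of day C, and C against B gave 3 without clone 2 of day B.

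**Figure D2:**
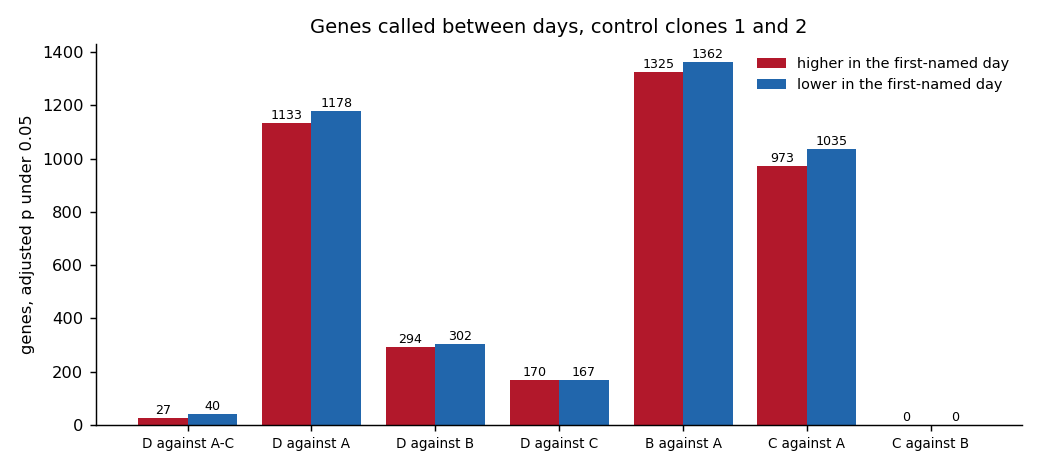
Genes called (adjusted p under 0.05) higher and lower in the first-named day, for day D against days A to C together and for each pair of days, in control clones 1 and 2. All 3 contrasts with day A stand above those without it, and C against B has none.

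Of the 67 called genes, 43 (14 higher and 29 lower) had at least 1 day D value inside the range that the 12 control libraries of days A to C spanned once clones 3 and 4 were included. The other 24 lay outside all 12: 13 above and 11 below, where 4.59% of all tested genes lay above and 2.2% below. Clones 1 and 2 enter both counts as the level that day D is set against. Values of clone 3, clone 4 or both, and for some genes of the 18qE libraries of day D, are therefore given with the genes. Where 1 clone is given, it is mostly the one nearer to day D. Libraries of the E7 and 18qNE deletion clones, from days A to C, are left out there, and some reached day D levels. The E7 clone had 103 to 172 CPM of AXL, 321 to 463 CPM of VCAN, 0 to 0.211 CPM of CD33 and 0 to 0.192 CPM of STXBP6. The 18qNE clones had 8.51 to 34.4 CPM of PRKAA2. Other genes did not: the E7 clone had 186 to 241 CPM of TNIK and 0.77 to 1.4 CPM of KRT7. Of the 30 named genes that were called, KLK6, SUN3, VCAN, EEF1A1P11, AXL, FTH1 and HCFC1R1 lay above all 12 libraries and CNTNAP2, FGF2 and TNIK below them. The genes follow by role.

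Keratins, the filament proteins of epithelia, were called in both directions, and the kallikreins described here, secreted proteases, were higher. KRT7, a keratin of simple glandular epithelia, had 25.3 and 20.2 CPM on day D, against 1.02, 1.61 and 3.41 CPM (lowest, median and highest) on days A to C. The groups did not overlap, and the log2 change was 3.51 (SE 0.33, adjusted p 0.00141). Clone 3 had 8.97, 21.7 and 29.4 CPM on days A, B and C, so the day D level was one that another control clone also had. In every control clone KRT7 was highest on day C, so its level moved with the day as well. Clone 4 had 3.26 to 15.4 CPM of KRT7, and the 18qE libraries of day D had 31.7 and 11.9 CPM. KRT20, a keratin of differentiated intestinal cells, fell to 1.15 and 1.2 CPM on day D, against 5.66, 7.03 and 9.97 CPM (log2 change -2.70, adjusted p 0.0043), and clone 4 had 0.618 to 1.54 CPM, with 3.39 and 3.42 CPM in the 18qE libraries. The kallikreins KLK6 (29.4 and 35.3 CPM on day D, 5.38 to 14.9 CPM on days A to C) and KLK10 (22.3 and 28.7 CPM, against 5.6 to 9.97 CPM) rose, and clone 4 had 25.1 to 28.7 CPM of KLK6 and 17.4 to 21.3 CPM of KLK10. Clone 3 reached 25.2 CPM of KLK10, whereas KLK6 lay above all 12 libraries on day D. ILDR2, a membrane protein of the angulin family, fell to 2.72 and 4.58 CPM, against 6.26 to 11.7 CPM (log2 change -1.28, adjusted p 0.023), and clone 4 had 3.25 to 4.78 CPM.

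Among secreted signals, DKK1, an inhibitor of Wnt receptors, had the highest level on days A to C among the 31 genes that fell at least 2-fold. It had 131 and 229 CPM on day D, against 707, 749 and 925 CPM on days A to C, with no overlap (log2 change -2.20, SE 0.21, adjusted p 0.00141). Clone 4 had 99.5 to 150 CPM and clone 3 had 713 to 828 CPM, and the 18qE libraries had 604 and 255 CPM. FGF2, a growth factor for fibroblasts and many other cells, had 5.14 and 4.49 CPM on day D, against 14.9, 21.8 and 27.3 CPM (log2 change -2.19, adjusted p 0.00213). It lay below all 12 libraries, although clone 4 with 5.85 to 8.44 CPM was near. ADM, a vasodilator peptide and hypoxia target, rose (40.2 and 63 CPM on day D, 21.1 to 31.2 CPM on days A to C), and clone 4 had 27.9 to 48.9 CPM. IGFBP6, which binds insulin-like growth factors, had 42.8 and 89.1 CPM, against 23.7 to 28.1 CPM, and VCAN, a proteoglycan of the matrix, 230 and 569 CPM, against 123 to 201 CPM. Clone 3 had 39 to 49.9 CPM of IGFBP6 and 121 to 223 CPM of VCAN, so that VCAN lay above all 12 libraries and IGFBP6 did not. Clone 4 had 23.1 to 29.3 CPM of IGFBP6. The 18qE libraries had 34.3 and 30.7 CPM of IGFBP6 and 129 and 204 CPM of VCAN. In both, the library labelled clone 2 was more than 2-fold above the one labelled clone 1. Neither was called without the library labelled clone 2 (IGFBP6 log2 change 0.68, adjusted p 0.347; VCAN log2 change 0.73, adjusted p 0.705, both edgeR).

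Receptors and kinases followed. AXL, a receptor tyrosine kinase and YAP target, had 66.4 and 65.4 CPM on day D, against 22.5, 33.3 and 38.7 CPM on days A to C (log2 change 1.06, adjusted p 0.0414). Clones 3 and 4 reached 41.9 CPM, so AXL stood above all 12 control libraries. The 18qE libraries of day D had 52.9 and 24.6 CPM of AXL. TNIK, a kinase of the Wnt pathway, had 37.7 and 36 CPM, against 87.7, 110 and 120 CPM. Its log2 change was -1.57 (SE 0.14, edgeR adjusted p 0.00098). Clone 4 had 44.8 to 56 CPM, above both day D libraries, and the 18qE libraries had 32.1 and 83.9 CPM. PRKAA2, a catalytic subunit of the energy sensor AMPK, had 21.1 and 16.1 CPM on day D, against 1.09, 1.59 and 5.53 CPM (log2 change 3.13, adjusted p 0.00768). Clone 4 had 23.9 to 30.2 CPM, above both day D libraries, and clone 3 had 1.88 to 6.12 CPM. The 18qE libraries of day D had 12.6 and 11.2 CPM. CD33, a sialic acid receptor known from myeloid cells, had 1.74 and 2.82 CPM, against 11.9, 15.6 and 20.2 CPM. Its log2 change was -2.82 (edgeR adjusted p 0.00156). Clone 4 had 1.32 to 1.87 CPM and clone 3 had 10.9 to 12.2 CPM. The 18qE libraries had 27.2 and 5.04 CPM of CD33. ADGRF1, an adhesion G protein-coupled receptor, had 13.5 and 4.49 CPM, against 16.7 to 35.6 CPM (log2 change -1.69, adjusted p 0.0109), and clone 4 had 10.8 to 17 CPM. PKIB, an inhibitor of protein kinase A, had 5.09 and 5.88 CPM, against 11.5 to 25.1 CPM (log2 change -1.70, adjusted p 0.0353), and clone 3 had 2.25 to 3.84 CPM.

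**Figure D3:**
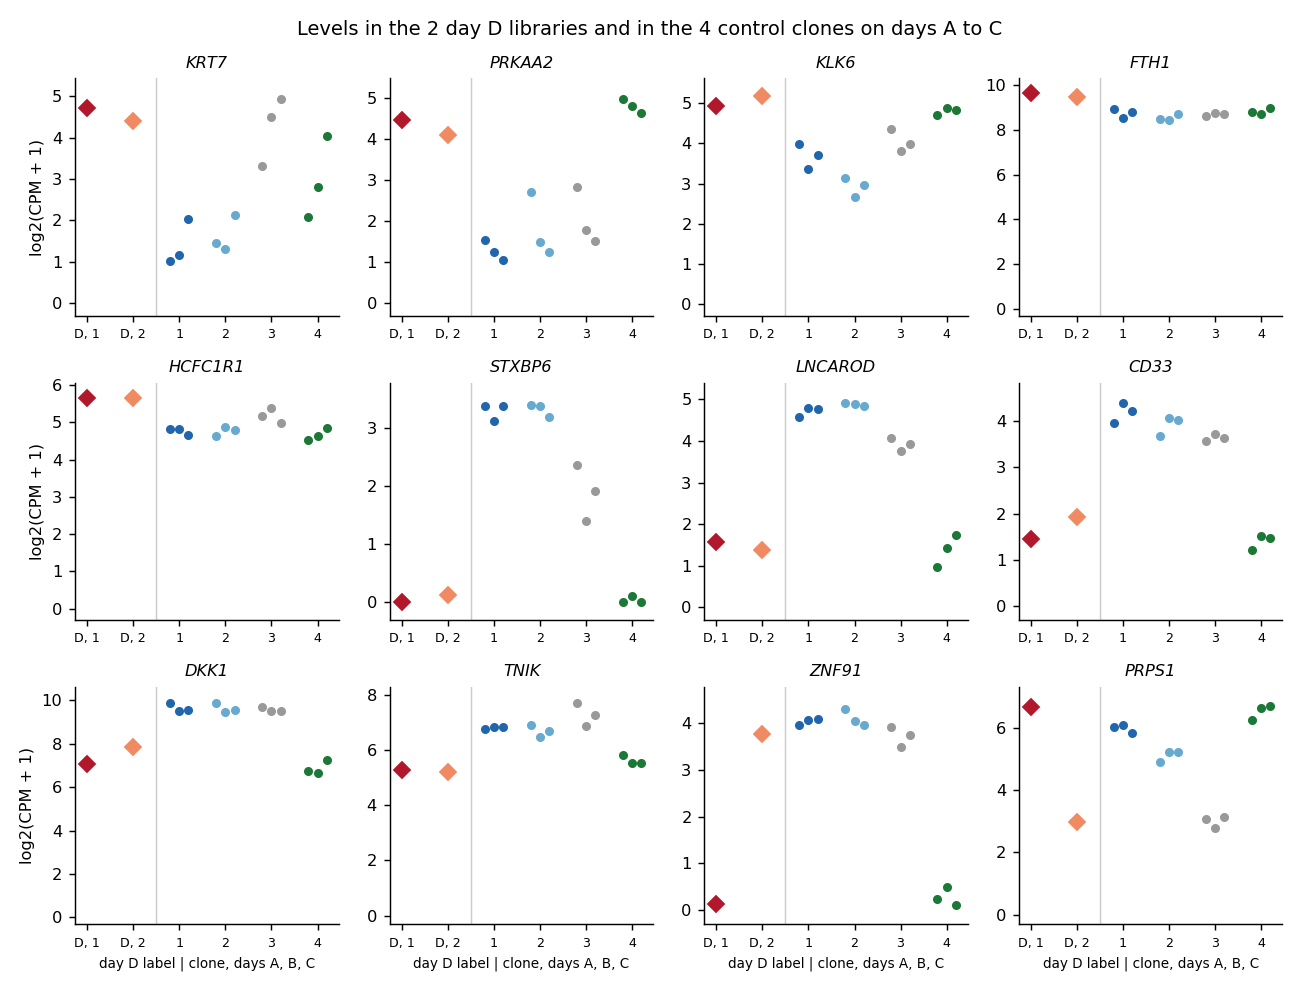
Level, as log2(CPM + 1), of 12 genes in the day D libraries labelled clone 1 and clone 2 (diamonds) and in clones 1 to 4 on days A, B and C (circles, left to right within a clone). For STXBP6, LNCAROD, CD33, DKK1 and TNIK both diamonds sit nearer to clone 4 than to clones 1 to 3, for ZNF91 the one labelled clone 1 does, and for FTH1 and HCFC1R1 both sit above all 12 circles.

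Further genes were lower in both day D libraries, and of these STXBP6 was close to off in both. STXBP6, which binds the membrane fusion machinery, had 0 and 0.0926 CPM on day D, against 7.66, 9.34 and 9.47 CPM on days A to C. That is 2 counts against 696, a pooled ratio of 0.00499 (exact 95% interval 0.000603 to 0.0181, counting error only). Clone 4 had 0 to 0.0812 CPM of it and clone 3 had 1.64 to 4.13 CPM. The long noncoding RNA LNCAROD had 1.95 and 1.62 CPM on day D, against 22.8, 27.3 and 28.9 CPM (log2 change -3.92, SE 0.19, adjusted p 5.37e-06), and clone 4 had 0.971 to 2.31 CPM. CNTNAP2, a neuronal adhesion protein, had 1.61 and 0.926 CPM, against 5.26, 9.31 and 14.7 CPM (log2 change -2.78, adjusted p 0.0112), and clone 4 had 2.27 to 3.93 CPM, so that day D was below all 12 libraries. CA12, a membrane carbonic anhydrase and hypoxia target, showed the labels apart: 0.764 CPM in the library labelled clone 1 and 5.6 CPM in the one labelled clone 2, against 10.9 to 15.8 CPM, where clone 4 had 0.406 to 1.41 CPM and the 18qE libraries 3.66 and 4.19 CPM. On chromosome 6, TMEM200A, a membrane protein, had 12.1 and 24.3 CPM on day D, against 51.6, 76.1 and 83.9 CPM, and clones 3 and 4 had 13.5 to 18.8 and 13.5 to 17 CPM. The 18qE libraries had 25.7 and 23.1 CPM of TMEM200A. SAMD3, whose span overlaps that of TMEM200A in NCBI's table so that their reads cannot be told apart without strand, had 2.21 and 3.61 CPM, against 8.44 to 10.6 CPM, with 2.65 to 3.25 CPM in clone 4 and 4.77 and 3.78 CPM in the 18qE libraries. The antisense RNA MSRB3-AS1 had 3.99 and 3.01 CPM, against 6.42 to 12.7 CPM, with 2.47 to 4.7 CPM in clone 3, and its reads cannot be told apart from those of overlapping genes, since the strand setting is unknown.

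Higher on day D among regulators were transcription factors and a caspase. RUNX2, which drives bone development, had 13.8 and 29.9 CPM on day D, against 3.81, 6.13 and 9.08 CPM on days A to C (log2 change 1.89, adjusted p 0.0414); it was not called without the library labelled clone 2 (log2 change 0.79, adjusted p 0.782). Clone 4 had 11.6 to 14.7 CPM of RUNX2. CASP4, an inflammatory caspase, had 6.58 and 8.66 CPM, against 2.78 to 4.09 CPM (log2 change 1.03, adjusted p 0.0414), and clone 4 had 6.17 to 8.93 CPM. MSX2, a homeobox factor of the BMP pathway, had 59.3 and 90.5 CPM, against 13.4, 19.9 and 27.6 CPM (log2 change 1.85, adjusted p 0.00455), and clone 3 had 50.1 to 93.6 CPM.

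FTH1, HCFC1R1, EEF1A1P11 and SUN3 were also higher than in all 12 control libraries. FTH1, the heavy chain of the iron store ferritin, had 811 and 723 CPM on day D, against 344, 392 and 488 CPM on days A to C (log2 change 0.90, SE 0.12, adjusted p 0.00975). Clones 3 and 4 spanned 397 to 501 CPM, and the 18qE libraries of day D had 762 and 536 CPM. HCFC1R1, a binding partner of the cell cycle factor HCF-1, had 49.9 and 49.5 CPM, against 23.9, 27 and 28.3 CPM (log2 change 0.89, SE 0.11, adjusted p 0.00575), and clone 3 reached 40.5 CPM, with 30.1 and 42 CPM in the 18qE libraries. The reads of EEF1A1P11 (10.2 and 7.87 CPM on day D, 2.66 to 5.29 CPM on days A to C, at most 5.38 CPM in clone 4), a pseudogene of an abundant elongation factor, can be split with its parent gene, so its call is uncertain. SUN3, a nuclear envelope protein of sperm, had 4.75 and 7.59 CPM, against 1.6 to 2.32 CPM, clone 4 reached 3.17 CPM, and the 18qE libraries had 5.75 and 3.78 CPM.

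Singled out after their values were seen, 3 further called genes lay outside all 12 control libraries. HMGA1, an architectural chromatin protein abundant in tumour cells, had 2670 and 2990 CPM on day D, against 1620, 1780 and 1860 CPM on days A to C (log2 change 0.66, SE 0.10, adjusted p 0.023); clones 3 and 4 spanned 1660 to 1960 CPM. The 18qE libraries of day D had 2670 and 2520 CPM of it, close to the control level of that day. BMI1, a Polycomb protein, had 40.5 and 31.2 CPM, against 52.9, 60.6 and 69.1 CPM (log2 change -0.78, adjusted p 0.0414), with 47.8 to 51.1 CPM in clone 3 and 36.2 and 52.5 CPM in the 18qE libraries. DCP2, the enzyme that removes the cap of messenger RNA, had 59.6 and 66.3 CPM, against 90.9, 99 and 116 CPM (log2 change -0.69, adjusted p 0.025), with 71.5 to 98.3 CPM in clone 3 and 65.2 and 73.2 CPM in the 18qE libraries. The 18qE clones carry a deletion and 1 library each, so these are levels only.

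For 3 of 15366 genes (0.0195%) the day D change differed between the 2 clone labels (interaction term, edgeR's quasi-likelihood test with Benjamini-Hochberg adjustment). Each clone label has 1 library on day D, so the term rests on single libraries and takes its error from the spread of days A to C, and the lone library is assumed to vary like those. ZNF91, described above, had 0.0849 CPM in the library labelled clone 1 and 12.6 CPM in the one labelled clone 2, against 14.6 to 18.7 CPM on days A to C (interaction, clone 2 minus clone 1, 7.02, SE 0.50, adjusted p 0.00133). PRPS1 had 101 and 6.85 CPM on day D, against 55.9 to 67.8 CPM in clone 1 and 29.1 to 36.7 CPM in clone 2 on days A to C, and clone 4 had 74.7 to 104 CPM (interaction -3.00, SE 0.29, adjusted p 0.0102). ZNF329, another zinc finger gene, had 5.35 and 0.185 CPM on day D, against 4.44 to 6.19 CPM on days A to C (interaction -4.85, SE 0.54, adjusted p 0.0269). No other control library had less than 3.56 CPM of ZNF329, so no control clone of days A to C had the low level. Without clone 1 of day A, 1 of the 3 genes was called, and without any other single library of days A to C 2 were.

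Neighbouring genes moved together at 1 place. Along each chromosome, medians over 31 consecutive genes above 5 CPM were taken of the log2 difference to the mean of clones 1 and 2 on days A to C. In the day D library labelled clone 2 they reached -0.67 at the end of the long arm of chromosome 1, and there a run of 33 genes ordered from TOMM20 to PGBD2 had a median of -0.66. The day D library labelled clone 1 had -0.07 over the same genes, the 12 control libraries of days A to C had -0.13 to 0.04, and the 18qE libraries 0.03 and 0.01. Of the 33 genes, 29 were below the mean of clones 1 and 2, and 22 were below all 13 other control libraries. The run was picked for its low medians in this library, so these counts only describe it. How many of all genes this library held below the 13 others was not counted. SDCCAG8, a centrosome protein, had 5.55 CPM there, against 14.3 to 21.3 CPM in the other control libraries. ADSS2, an enzyme of adenine nucleotide synthesis, had 36.8 CPM, against 75.8 to 105 CPM. FH, the fumarase of the citric acid cycle, had 65.9 CPM, against 73.5 to 95.7 CPM, and TOMM20, at the near edge of the run, had 282 CPM, within the 264 to 363 CPM of the others. No window in the 13 other control libraries or the 2 18qE libraries passed 0.5 in either direction (the other HCT116 libraries were not scanned), and DNA copies were not measured in the files used here. None of the 33 genes was among the 67 called.

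**Figure D4:**
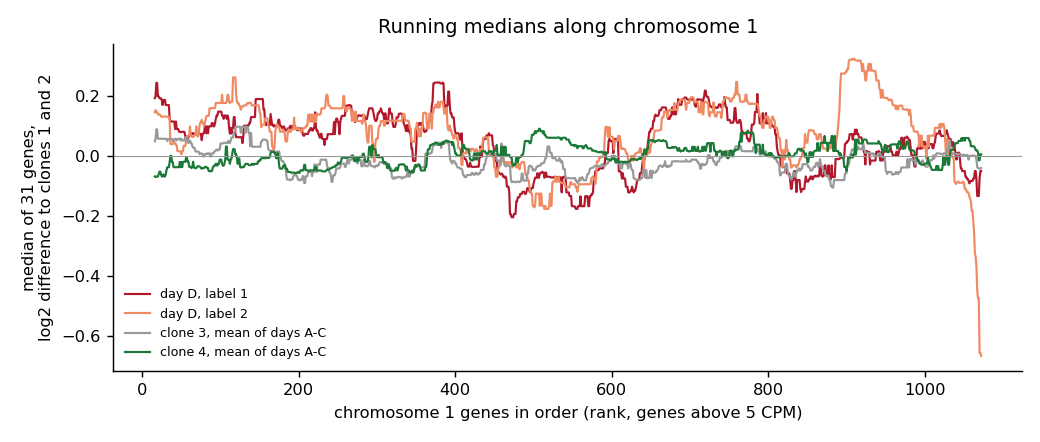
Running median over 31 genes, in chromosome order, of the log2 difference to the mean of clones 1 and 2 on days A to C, for the 2 day D libraries and for the means of clones 3 and 4. The line of the day D library labelled clone 2 reaches 0.32 before it drops to -0.67 at the right end, a drop that no other line shows.

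Of the 949 distinct genes tested in 37 lists of culture state, cell identity, other cell types and library signs, 7 were called (0.738%), against 0.453% of all genes. They fell in 5 lists: hypoxia (ADM higher, CA12 lower; 27 members tested), oxidative stress (FTH1 higher; 23), YAP and TEAD targets (AXL higher; 19), Wnt targets (DKK1 lower; 18) and epithelial junctions and keratins (KRT7 higher, KRT20 lower; 36). The median log2 change over all tested genes was 0, with 49.9% of genes above 0. The 40 mitosis genes had a median of -0.04 and 0 called members by edgeR, with 2 at an unadjusted p under 0.05, where 13.2% of all genes were. Relative to the mean of the labelled clone, their medians were -0.03 and 0.04 on day D, against -0.28 and -0.39 on day A, 0.23 and 0.30 on day B and 0.03 and 0.07 on day C. Day D thus sat between day A and day B and near day C. MKI67, a marker of cycling cells, had 884 and 1170 CPM on day D, within the 704 to 1240 CPM of days A to C.

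The largest list median among lists with at least 5 tested members was that of the ATF4 and amino acid response, 0.40 over 36 members, of which 0 were called by edgeR and 19 had an unadjusted p under 0.05. The 2 libraries differed: the list's median was 0.62 in the day D library labelled clone 1 and 0.11 in the one labelled clone 2, against -0.11 to 0.11 on days A to C. Named after their values were seen, CHAC1 (glutathione breakdown) had 26.4 and 4.81 CPM on day D, against 2.69 to 8.09 CPM, and ASNS (asparagine synthetase) had 354 and 67.2 CPM, against 68.9 to 163 CPM. PSAT1 (serine synthesis) had 363 and 149 CPM, against 124 to 196 CPM. Clone 4 reached 11.8 CPM of CHAC1, 235 CPM of ASNS and 303 CPM of PSAT1, below the day D library labelled clone 1. The first 18qE library had 58.3, 415 and 567 CPM of CHAC1, ASNS and PSAT1, and its list median was 1.09, whereas the second had a list median of -0.09. Within day D, libraries thus differed more in this list than the 6 libraries of days A to C did.

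In 4 of 33 lists with at least 5 tested members both day D medians lay above all 6 libraries of days A to C, and in 0 lists below. For the actin cytoskeleton they were 0.15 and 0.35, against at most 0.05. TPM2, a tropomyosin, had 398 and 365 CPM on day D, against 210 to 302 CPM (adjusted p 0.09), and PFN1, an actin-binding profilin, had 1310 and 1210 CPM, against 825 to 1040 CPM (adjusted p 0.122). Both were named after their values were seen, and of 27 members 11 lay above all 6 libraries in both day D libraries, where 10.8% of all genes did. Translation factors had medians of 0.17 and 0.20 on day D, against at most 0.06, with 10 of 32 members above all 6. Mitochondrially encoded genes had 0.27 and 0.47, against at most 0.24, with 1 of 15 members above all 6. Metallothioneins and zinc genes had 0.38 and 0.25, against at most 0.21, with 3 of 8 members above all 6. DNA replication genes had 19 of 46 members above all 6 and a median log2 change of 0.14. None of these members was called in the 4 lists or in DNA replication (edgeR), so the lists are described by their medians only.

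**Figure D5:**
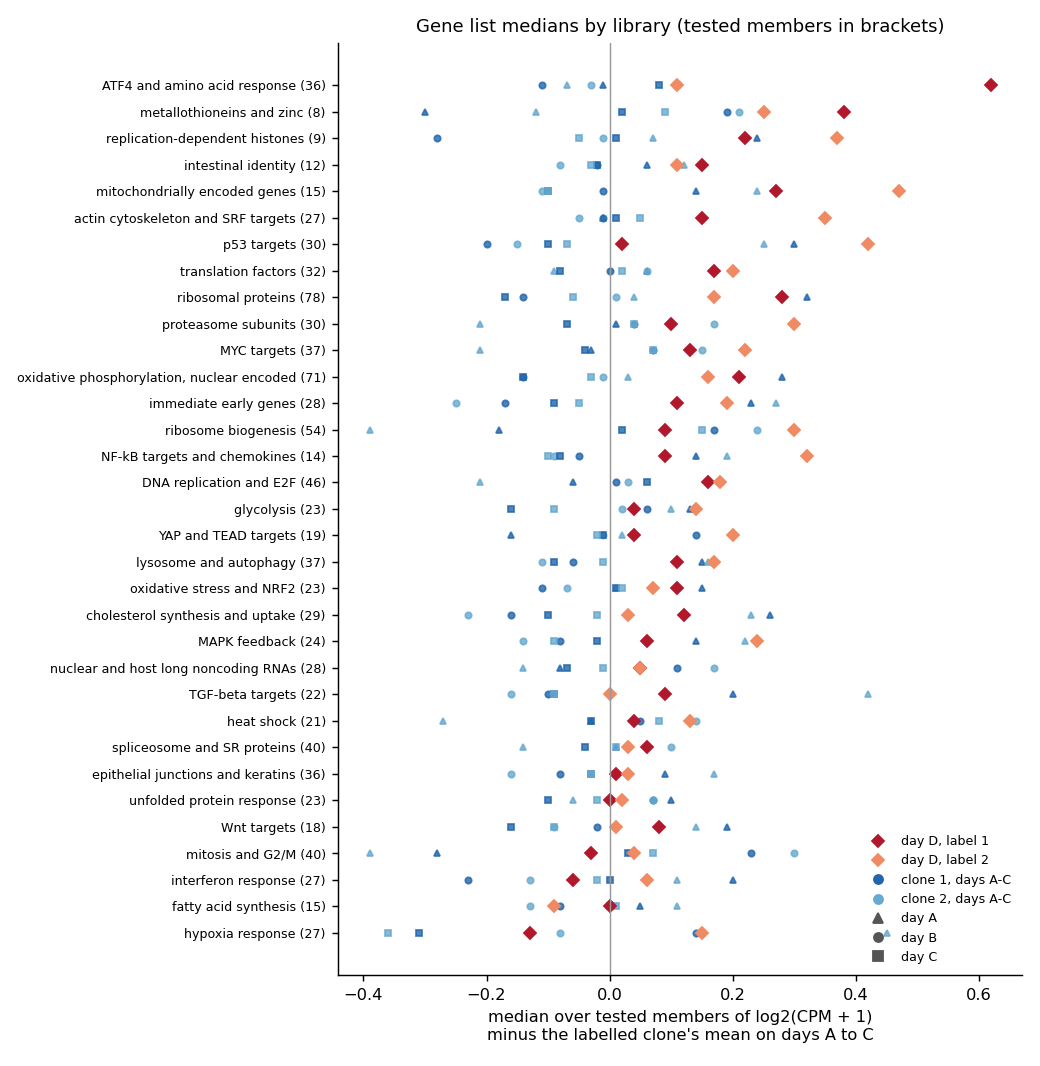
Median over the tested members of each list with at least 5 of them (number in brackets) of log2(CPM + 1) minus the mean of the labelled clone on days A to C, per library; diamonds are day D, triangles, circles and squares days A, B and C. The ATF4 median of the day D library labelled clone 1 (0.62) is the largest value shown, and the day A libraries sit apart from days B and C in many lists.

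Genes named whatever their values did not pass the test with days A to C together. MYC had 491 and 536 CPM on day D, against 383, 405 and 482 CPM on days A to C (log2 change 0.27, adjusted p 0.348), and SMAD7, a TGF-beta inhibitor, had 10.4 and 10.2 CPM, against 5.72, 7.93 and 9.2 CPM (log2 change 0.38, adjusted p 0.434). CDX2, an intestinal transcription factor, had 27.8 and 27.7 CPM, against 19, 20.4 and 21.8 CPM (adjusted p 0.154). CDKN1A, a p53 target that stops the cell cycle, had 120 and 245 CPM on day D, within or above the 85.5 to 206 CPM of days A to C, of which the 2 day A libraries had 206 and 202 CPM. The median of its list, p53 targets, was 0.02 and 0.42 on day D, against -0.2 to 0.3, with 0.30 and 0.25 on day A. MALAT1, an abundant nuclear RNA, had 64 and 84.8 CPM, against 73.6 to 150 CPM (adjusted p 0.333). VIL1 was near 0 and not tested. Without day A, 4 of these genes were called: MYC (log2 change 0.27, adjusted p 0.0484), CDKN1A (0.81, adjusted p 0.018), CDX2 (0.41, adjusted p 0.0195) and MALAT1 (-0.86, adjusted p 0.00438). With 1 level per day CDX2 (adjusted p 0.0322) and MALAT1 (adjusted p 0.0202) were called, and MALAT1 was also called with no filter on low counts (adjusted p 0.00514) and with days A to C summed per clone (adjusted p 0.0377), all by edgeR.

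Depth and read placement moved with the day. With the day D counts thinned to 12899609 gene counts per library, the mean of days A to C, 45 genes were called, 44 of them among the 67. The share of reads aligned at several places was higher on day D than in every library of days A to C, and with it as a covariate 3 genes were called, 2 of them (LNCAROD and CNTNAP2) among the 67. That covariate and the day nearly coincide, so their parts cannot be told apart by the fit. The log2 changes of several genes that lost their call moved little with it: KRT7 had 3.38, STXBP6 -7.21, TNIK -1.59, FTH1 0.88, HCFC1R1 0.94 and FGF2 -2.08. Others moved toward 0: PRKAA2 had 0.66, TMEM200A -0.17 and CA12 -0.09, against 3.13, -2.00 and -2.28 without the covariate. Others again grew: RUNX2 had 3.76, KLK10 2.69, IGFBP6 2.48, ADGRF1 -2.88 and CNTNAP2 -5.31. Without the covariate these had 1.89, 1.57, 1.32, -1.69 and -2.78. The share also differed between the 2 day D libraries (18.8% and 15.6%), so the covariate takes up differences between them as well. In the 18qE libraries of the same day the share was 18.5% and 24.8%. For KRT7, PRKAA2, KRT20, TMEM200A, CA12 and SAMD3, among others, both lay beyond days A to C in the direction of the day D controls, at the levels given above. STXBP6 (9.01 and 1.44 CPM), LNCAROD (23.1 and 4.23 CPM) and CNTNAP2 (8.34 and 5.36 CPM) had at least 1 18qE library inside the range of days A to C. Without mitochondrial, ribosomal protein, histone, small RNA and pseudogene features, 66 genes were called, 65 of them among the 67. The median log2 change ran from -0.138 in the quintile of genes with the lowest CPM to 0.059 in the highest quintile, and from 0.111 in the quintile with the shortest span to -0.077 in the longest quintile. Between days C and B the span medians ran the other way, from -0.042 to 0.027. Their part in the calls was not tested.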

How the data were processed

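The authors deposited whole-number counts of reads per gene, 1 library per file. Per the submitters' processing notes, TopHat2, Partek 3, HTSeq 0.6.1 and the build hg19 were among those used; no source used here names the strand setting. Of 57820 genes, 51996 were matched to a symbol; gene order and span came from NCBI's table of GRCh38.p14, so no coordinates are given. HTSeq's summary lines stayed out of library sizes and tests.

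Genes passing filterByExpr (minimum count 10) were fitted in edgeR 4.0.16 (TMM, quasi-likelihood) with clone and day D as terms, 5 residual degrees of freedom, and Benjamini-Hochberg adjustment over all tested genes. The pipeline was tested on simulated data. The clone number pairs libraries by label. Clone differences on day D correlated with those on days A, B and C across genes at 0.241, -0.0895 and 0.0507. Among days A to C these correlations were also low: -0.023 (A against B), 0.167 (A against C) and 0.228 (B against C). Named genes were the largest called changes at 5 CPM or more with both day D libraries beyond the 6 of days A to C, up to 15 per direction, called list members, 8 fixed genes, and interaction genes. Members and lists were chosen with earlier results of these data known.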

Additional observations from a re-analysis of the deposited data

Results flagged for a closer look

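ZNF91 differed between the clone labels in its day D change, with an interaction of 7.02 on the log2 scale, clone 2 minus clone 1; PRPS1 had an interaction of -3.00 and ZNF329 one of -4.85. Each rests on 1 day D library per clone label. In all 3, a day D library lay outside the range of its labelled clone, and for ZNF91 the library labelled clone 1 stood at the level of clone 4.

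Among the 6 libraries of days A to C, clone 2 of day A stood apart from the others with 5.53 CPM of PRKAA2 and 18.7 CPM of ZNF91. Clone 1 of day C had the lowest gene total, 9871667, far from the others. Clone 1 of day A had the highest share of ribosomal protein counts, 6.65%. Chance flags about 1 in 20 such groups, and 51 measures were looked at.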

How the results depend on the processing

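The 67 calls (27 higher, 40 lower) became 467 (214 and 253) with no filter on low counts, 905 (461 and 444) with 1 level per day, 317 (109 and 208) with days A to C summed per clone, 122 (53 and 69) with clones 3 and 4 added and 357 (138 and 219) with DESeq2. They became 2150 (1143 and 1007) without day A, 28 (8 and 20) without day B, 21 (5 and 16) without day C, 45 (16 higher) with day D thinned, and 3 (1 and 2) with the share aligned at several places as a covariate. With no replicate block they were 70, and library totals gave 15 higher. Leaving out 1 library at a time gave 13 to 92 calls (1 to 37 higher, 12 to 55 lower). With no filter on low counts, the interaction gave 42 genes, D against B 1389, D against C 1229 and C against B 30; with no replicate block, D against C gave 175. Leaving out 1 library gave 1 to 2 interaction genes, 118 to 3204 genes for D against A, 115 to 977 for D against B, 73 to 892 for D against C, 726 to 3400 for B against A, 163 to 2719 for C against A and 0 to 3 for C against B. The cause was not tested. None of the 30 called named genes reversed. Among named genes not called, these log2 changes did: MKI67 0.03284 without day B and 0.8426 with the covariate, MALAT1 0.7258 and ZNF91 2.019 with the covariate, EPCAM -0.06038 with library totals and -0.03661 with the covariate, and PRPS1 0.1346 with no replicate block. Leaving out 1 library gave -0.1636 to 0.8603 for the log2 change of CDKN1A, -0.2211 to 0.04131 for the log2 change of MKI67, -0.009327 to 0.02938 for the log2 change of EPCAM and -2.331 to 0.6642 for the log2 change of PRPS1. Of 745 recomputed list medians, 43 moved by more than 1 SD, 23 of them with the covariate.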
